A study of Homo sapiens with 18 samples.

Results

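The genes described here are 10 targets and regulators of Wnt signalling, some of which also mark or maintain intestinal stem cells: LGR5, ASCL2, AXIN2, RNF43, ZNRF3, NKD1, SP5, MYC, TCF7 and LEF1. They were taken as every non-control spot of the array that carries 1 of these names, which gave 32 spots and 14 probes, and they are 10 of the 36204 gene names on the array. Expression had been measured on 18 one-colour Agilent human arrays, 3 biological replicates for each of 6 groups. The line HT29 derives from a human colorectal adenocarcinoma and is sensitive to the platinum drug oxaliplatin (OXA), and HTOXAR3 is a subline of HT29 with acquired OXA resistance, obtained under continuous exposure to rising OXA doses. Each line was left untreated per the labels and the array methods (the study's text also names a vehicle for these samples), given OXA for 24 h, or given OXA together with Curcumin, a plant polyphenol, for 24 h. The OXA dose was 10 µM for HT29 and 30 µM for HTOXAR3, and the Curcumin dose was 10 µM in both. Curcumin was not given alone in these samples. A difference between the lines after treatment therefore also compares different OXA doses, and the contrast of resistant with sensitive cells rests on 1 derived subline and its parent.

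In canonical Wnt signalling a secreted Wnt protein binds a Frizzled receptor and an LRP co-receptor, which stops the destruction of beta-catenin, so that beta-catenin enters the nucleus and switches on genes together with DNA-binding factors of the TCF/LEF family. Several of the genes switched on then dampen the pathway. AXIN2 rebuilds the destruction complex, RNF43 and ZNRF3 remove Frizzled receptors from the membrane, and NKD1 acts against Dishevelled. In the intestinal crypt the pathway maintains the stem cells, where LGR5 is a receptor for R-spondins and ASCL2 is a transcription factor of the stem cell programme, and many colorectal tumours carry lesions that keep it active.

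The 60-base probes of 2 genes are shown because the results for LGR5 and AXIN2 rest on these stretches of transcript alone or in the main. Per the array files, the LGR5 probe lies on chromosome 12 of GRCh37 at chr12:71978325-71978384, plus strand, and the brighter of the AXIN2 probes on chromosome 17 at chr17:63554388-63554447, minus strand. Both are written 5′ to 3′ as deposited.
LGR5 probe: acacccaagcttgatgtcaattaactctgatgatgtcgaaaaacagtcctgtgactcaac
AXIN2 probe: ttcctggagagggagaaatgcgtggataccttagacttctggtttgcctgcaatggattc

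SP5, a transcription factor gene and the member called higher in both lines after OXA plus Curcumin, is shown with the 250 bases before its start, from RefSeq on GRCh38.p14, chr2:170715087-170715336, plus strand. Capitals mark matches, on either strand, to the TCF/LEF-type motifs CTTTGAA or CTTTGAT, and also to the variants CTTTGTA or CTTTGTT.
SP5 upstream region: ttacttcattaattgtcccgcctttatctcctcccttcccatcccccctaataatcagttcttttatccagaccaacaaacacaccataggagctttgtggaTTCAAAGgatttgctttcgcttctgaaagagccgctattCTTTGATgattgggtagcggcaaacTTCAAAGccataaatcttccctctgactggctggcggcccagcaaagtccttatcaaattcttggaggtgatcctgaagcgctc
The stretch holds 3 non-overlapping matches, which start 148, 109 and 84 bases before the start of the gene. RefSeq promoter windows of 300 bases (250 before and 50 after the start) were matched for 4 of the 10 genes, SP5, TCF7, RNF43 and LEF1. Of all 35116 windows, 4829 (13.8%) hold at least 1 of the 4 motifs. Among the windows of the other matched genes, 1 of the windows of TCF7 holds 1 match and those of RNF43 and LEF1 hold 0. A match is a run of letters, not a site shown to be bound.

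The arrays measure RNA per sample, so fewer cells that express a gene and less of its RNA per cell cannot be told apart. On log2 intensities after background correction and quantile normalization, 7 of the 10 genes were well above background on all 18 arrays by the scanner software's own test. LGR5 was above it on 17 arrays and NKD1 on 14. LEF1, which encodes a TCF/LEF family factor, was above it on 0 of 18 arrays, with readings between 2.57 and 4.64, so no level or difference can be read for it. Of the colorectal epithelial markers, 9 of 10 (EPCAM, CDH1, KRT8, KRT18, KRT19, KRT20, VIL1, CDX1 and LGALS4) were well above background on all 18 arrays, and CDX2 on 10. Its means were 7.12, 6.07 and 5.88 in HT29 (untreated, OXA, OXA plus Curcumin) and 4.96, 3.84 and 3.59 in HTOXAR3. In untreated HTOXAR3 the means of LGALS4 and VIL1 were also below those of untreated HT29, at 12.90 against 14.98 and 10.46 against 12.08, whereas EPCAM stood at 16.2 against 16.4 and KRT20 at 13.43 against 13.45. Of the markers of blood, endothelial and fibroblast cells reported here, the collagen genes COL1A2 and COL3A1 were well above background on 0 arrays, whereas PTPRC, CD14, CDH5 and VWF were on all 18. The part of all these markers in the results below was not tested.

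**Figure D1:**
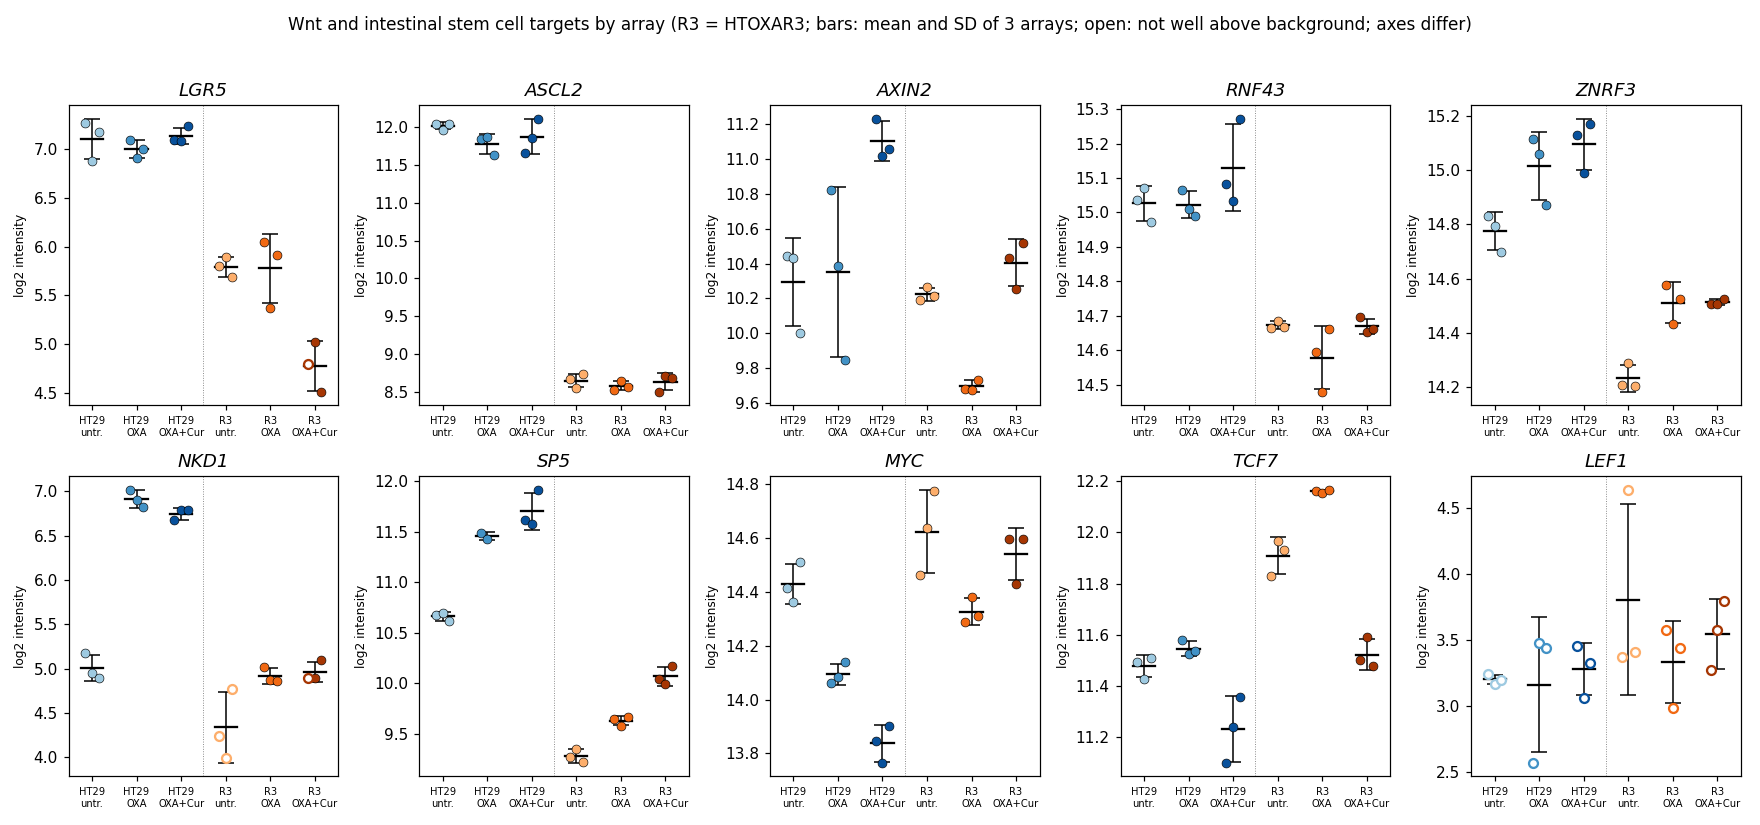
Log2 intensity of each of the 10 genes on each array, by line and treatment (untr., untreated; OXA+Cur, OXA plus Curcumin; R3, HTOXAR3). Points are arrays, open where the spot was not well above background, and bars give the mean and SD of 3 arrays (2 for SP5 in HT29 after OXA); the vertical axes differ between panels, ASCL2 separates the lines by 3.37 in untreated cells, and NKD1 in HT29 steps from a mean of 5.01 to 6.92 with OXA.

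Differences were tested with limma over all gene names, in a model of all 18 arrays with 1 term per group, and called at a Benjamini-Yekutieli adjusted p under 0.05 with a fold change over 1.2. With 3 arrays per group the p-values measure the spread between biological replicates of cultured lines. Over the contrasts described here 9 of the 10 genes were called at least once, in 20 differences. Comparisons within a line share their untreated or OXA arrays, and the basal comparison shares the untreated arrays with them, so their values are not independent of each other.

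Before treatment, HTOXAR3 held less RNA than HT29 of 5 members and more of 1. ASCL2 was 10.3-fold lower, SP5 2.61-fold lower, LGR5 2.48-fold lower, ZNRF3 1.46-fold lower and RNF43 1.28-fold lower, whereas TCF7 was 1.35-fold higher. In this comparison 5.28% of all gene names were called lower and 6.28% higher, against 5 and 1 of the 10 genes. Among names well above background on every array of at least 1 group (detected names), 22.3% were called in either direction. The median difference was -0.45 over the 10 genes and -0.03 over all names.

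With OXA alone, 2 of the 10 genes rose in HT29 (NKD1 3.76-fold and SP5 1.73-fold) and 0 fell. In this comparison 8.34% of all names were called higher and 7.62% lower, beside 29.9% of detected names in either direction. MYC, at -0.34 (limma adjusted p = 0.0611), was called lower there under 6 alternative settings, among them an offset of 50 (adjusted p = 0.0202), the processed signal (adjusted p = 0.00343) and normexp values (adjusted p = 0.00493) scaled to the 75th percentile, and Benjamini-Hochberg adjustment (adjusted p = 0.00552). In HTOXAR3, limma called 0 of the 10 after OXA. Of all names 5.33% were called higher and 4.95% lower in HTOXAR3, beside 21.2% of detected names in either direction. There 6 genes had an unadjusted p under 0.05, and Benjamini-Hochberg adjustment called 4, with ZNRF3, NKD1 and SP5 higher and MYC lower. The test of the difference between the lines in the OXA response called 1 member, NKD1, where 1.01% of all names were called, and NKD1 had only an upper limit in untreated HTOXAR3.

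When Curcumin was added to OXA, limma called 0 of the 10 in HT29, where 3.14% of names were called higher and 2.38% lower. There 4 genes had an unadjusted p under 0.05, and Benjamini-Hochberg adjustment called 2, AXIN2 higher and TCF7 lower. In HTOXAR3 3 of the 10 were called: LGR5 fell 2.001-fold and TCF7 1.56-fold, and SP5 rose 1.35-fold. There 4.43% of names were called higher and 4.41% lower, beside 18.4% of detected names in either direction. Benjamini-Hochberg adjustment also called AXIN2 higher in HTOXAR3 (0.71, limma adjusted p = 0.0164). The direct test of the difference between the lines in the Curcumin effect called 0 members at 0.135% of all names. It gave 3 members an unadjusted p under 0.05, and with Benjamini-Hochberg adjustment it called 1, LGR5.

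Under the combination against untreated cells 4 members were higher and 1 lower in HT29, with NKD1 3.35-fold, SP5 2.06-fold, AXIN2 1.75-fold and ZNRF3 1.25-fold higher and MYC 1.51-fold lower. Of all names 9.57% were called higher and 9.01% lower in that comparison, beside 34.3% of detected names in either direction. In HTOXAR3 1 was higher and 2 lower: it raised SP5 1.73-fold and lowered LGR5 2.03-fold and TCF7 1.31-fold. There 8.83% of names were called higher and 8.66% lower, beside 32.2% of detected names in either direction. SP5 was the 1 member called higher in both lines. The difference between the lines in the combination response was called for 0 members at 0.854% of all names, with 4 at an unadjusted p under 0.05 and 3 (LGR5, NKD1 and MYC) called with Benjamini-Hochberg adjustment.

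**Figure D2:**
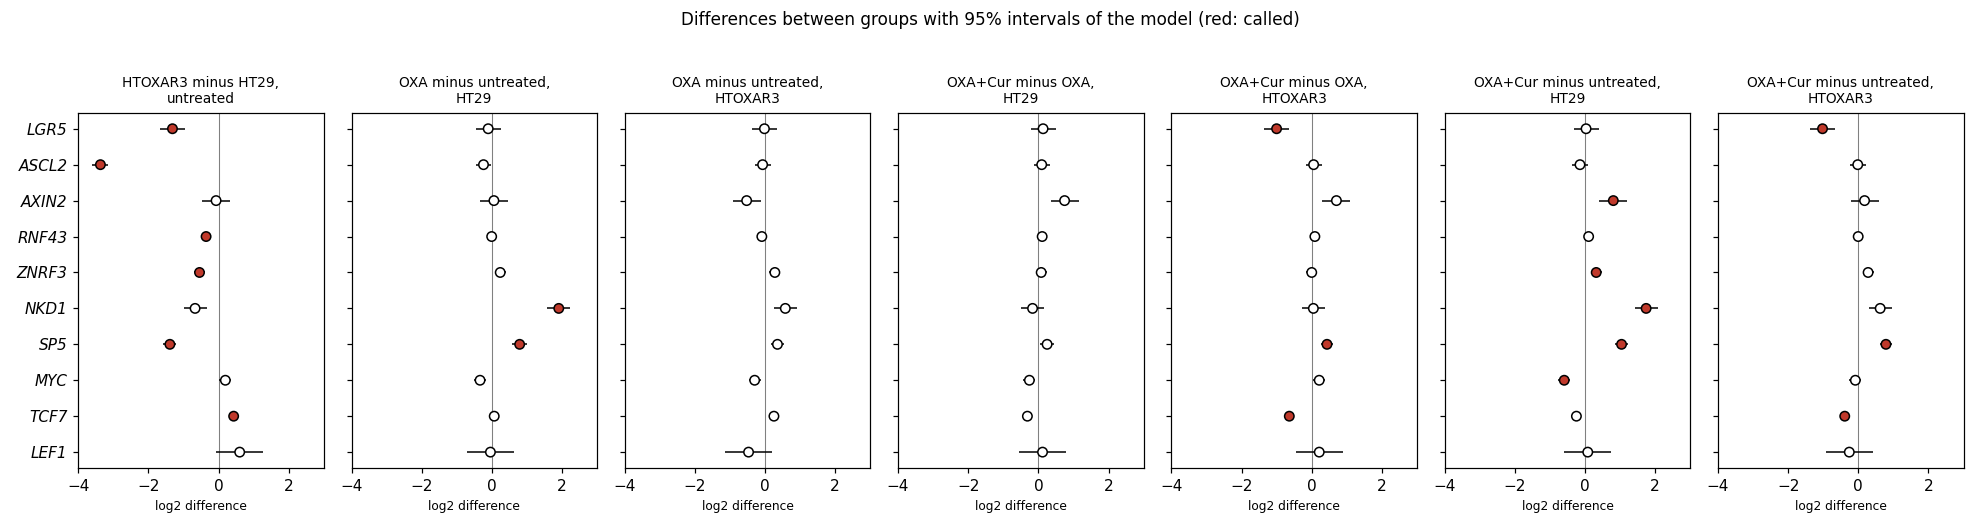
Log2 difference of each gene (rows) in the 7 comparisons between 2 groups (panels), with 95% intervals of the limma model; red points are called. ASCL2 at -3.37 in the basal panel is the widest difference, NKD1 reaches 1.91 and 1.74 in the HT29 panels, and LGR5 lies at -1.001 and -1.02 in the HTOXAR3 panels with Curcumin.

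LGR5, the R-spondin receptor of crypt stem cells, is read by 1 probe. Its log2 intensities were 7.27, 6.87 and 7.18 in untreated HT29, 7.09, 6.91 and 7.01 after OXA and 7.09, 7.09 and 7.23 after OXA plus Curcumin. In HTOXAR3 they were 5.80, 5.89 and 5.69 untreated, 6.04, 5.37 and 5.91 after OXA, and 4.79, 5.02 and 4.51 after OXA plus Curcumin, where 1 of the 3 spots was not well above background. All 9 HTOXAR3 arrays lay below all 9 HT29 arrays, and the 3 arrays with Curcumin lay below the other HTOXAR3 arrays.

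The basal difference in LGR5 was -1.31 (SE 0.17, limma adjusted p = 0.000437). Within HT29 the treatment differences were between -0.10 and 0.13, each with an adjusted p of 1, and the 95% interval of the combination response ran from -0.32 to 0.39. In HTOXAR3 OXA alone gave -0.02, with an interval from -0.37 to 0.34, and Curcumin added to OXA gave -1.001 (SE 0.17, adjusted p = 0.00728). The size of these low readings depends on the background offset: with an offset of 50 the basal difference was -0.83 and the Curcumin difference -0.44, both still called. Without replicate 3 of HTOXAR3 after OXA plus Curcumin, the Curcumin difference was -0.87 with an adjusted p of 0.0514, past the threshold. The direct line difference in the Curcumin effect was -1.13 (SE 0.23, adjusted p = 0.421), which was not called.

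ASCL2, the stem cell transcription factor, read 12.05, 11.96 and 12.04 in untreated HT29 and 8.67, 8.55 and 8.73 in untreated HTOXAR3. After OXA the values were 11.84, 11.87 and 11.63 in HT29 and 8.53, 8.65 and 8.57 in HTOXAR3. After the combination they were 11.65, 11.86 and 12.11 in HT29 and 8.50, 8.71 and 8.69 in HTOXAR3. The lines did not overlap under any treatment, and the 3 treatment groups of HTOXAR3 overlapped each other.

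The basal difference in ASCL2 was -3.37 (SE 0.11, adjusted p = 2.75e-10), the widest of the 10 genes. ASCL2 passed the test in 0 of the 6 comparisons within a line, and OXA in HT29 came nearest at -0.24 (SE 0.11, interval -0.46 to -0.01, adjusted p = 1). Among 21859 other detected names, those whose log2 values followed ASCL2 most closely over the 18 arrays were AUTS2 (Pearson r = 0.9964), RIN1, a RAS effector (r = 0.9963), and MAOA, which encodes monoamine oxidase A (r = 0.9955). The points of these correlations share the 2 lines: untreated means of AUTS2 were 11.5 in HT29 and 5.48 in HTOXAR3, those of RIN1 12.7 and 11.2, and those of MAOA 10.8 and 8.54.

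SP5, a zinc finger transcription factor gene switched on by beta-catenin, read 10.68, 10.701 and 10.61 in untreated HT29 and 9.27, 9.35 and 9.22 in untreated HTOXAR3. In HT29 after OXA 2 spots read 11.48 and 11.43, and the spot of replicate 3 carried the scanner software's outlier flag and was left out. After OXA plus Curcumin HT29 read 11.62, 11.58 and 11.92. HTOXAR3 read 9.65, 9.58 and 9.67 after OXA and 10.04, 10.00 and 10.17 after the combination. In each line the 3 treatments stood in the same order, with no overlap among the readings used, and all HT29 readings lay above all HTOXAR3 readings.

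The basal difference in SP5 was -1.39 (SE 0.08, adjusted p = 7.43e-07). OXA raised it by 0.79 in HT29 (SE 0.09, adjusted p = 3e-04, n = 2 and 3), but the flagged spot itself read 10.78, near the untreated level, and with it the difference was 0.57 and not called (adjusted p = 0.114). In HTOXAR3 OXA gave 0.35 (SE 0.08, adjusted p = 0.102). The combination gave 1.04 in HT29 (SE 0.08, adjusted p = 7.74e-06) and 0.79 in HTOXAR3 (SE 0.08, adjusted p = 0.000109), and neither rests on the flagged spot. The rise when Curcumin was added in HTOXAR3, 0.44 (SE 0.08, adjusted p = 0.0289), lost its call when any 1 of its 6 arrays was left out (0.39 to 0.47), with slide as a block (0.44, adjusted p = 0.0648) and with flagged spots kept.

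NKD1, the Dishevelled antagonist, read 5.17, 4.96 and 4.89 in untreated HT29. It read 7.02, 6.91 and 6.82 after OXA and 6.67, 6.79 and 6.79 after the combination. In untreated HTOXAR3 the readings were 4.25, 3.99 and 4.78, on 0 of 3 arrays well above background. They were 5.02, 4.87 and 4.86 after OXA and 4.90, 4.90 and 5.10 after the combination, where 2 of 3 were well above it. The treated HT29 arrays stood apart from all others, and the treated HTOXAR3 arrays overlapped untreated HT29.

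OXA raised NKD1 in HT29 by 1.91 (SE 0.15, adjusted p = 4.02e-06) and the combination by 1.74 (SE 0.15, adjusted p = 7.93e-06). With a background offset of 50 the same differences were 1.06 and 0.94, both called. Since NKD1 had only an upper limit in untreated HTOXAR3, its differences from that group are bounds: untreated HT29 was at least 1.202-fold higher, HTOXAR3 after OXA at least 1.13-fold higher and HTOXAR3 after the combination at least 1.17-fold higher (adjusted p = 0.0584, 0.159 and 0.0654; measured means 5.01, 4.92 and 4.96 against 4.34). Each bound sets the brighter group's mean against the higher, on each array, of the dim probe's reading and the lowest signal well above background. For NKD1 the OXA responses of the lines differed by -1.33 (SE 0.21, adjusted p = 0.0322). As 1 of its 4 groups was not above background, the response of HTOXAR3 has no exact size. The line difference could be smaller or larger than the -1.33, which rests on the readings of that group as they stand. The call was lost when any of 9 of the 12 arrays was left out, at differences from -1.51 to -1.11 over all 12, and with either scaling to the 75th percentile (-1.61 and -1.46).

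AXIN2, the scaffold of the destruction complex, had the widest standard error (0.19) of the members well above background on all 18 arrays. It read 10.45, 10.43 and 10.00 in untreated HT29, 10.82, 10.39 and 9.85 after OXA, and 11.23, 11.02 and 11.05 after the combination. In HTOXAR3 it read 10.19, 10.27 and 10.21 untreated, 9.68, 9.68 and 9.74 after OXA, and 10.43, 10.26 and 10.52 after the combination. The HT29 combination arrays were above all others, and the HTOXAR3 arrays after OXA were below all others.

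At baseline the lines differed by -0.07 in AXIN2 (SE 0.19, interval -0.47 to 0.33, adjusted p = 1). The combination raised it by 0.81 in HT29 (SE 0.19, adjusted p = 0.0433), a call that was lost when any 1 of the 6 arrays was left out (0.66 to 0.88). It was also lost with normexp values scaled to the 75th percentile (0.78, adjusted p = 0.0576), whereas the second AXIN2 probe gave 0.59 (SE 0.12, adjusted p = 0.0205) and was called. In HTOXAR3 OXA alone gave -0.53 (adjusted p = 0.739), Curcumin added to OXA 0.71 (adjusted p = 0.182) and the combination against untreated 0.18 (adjusted p = 1). In HT29 Curcumin added to OXA gave 0.75 (adjusted p = 0.177). With slide as a block these Curcumin differences were 0.88 in HT29 (adjusted p = 0.0234) and 0.71 in HTOXAR3 (adjusted p = 0.0359), both called, and the line difference in the Curcumin effect was -0.17 (adjusted p = 1). Without the block that line difference was -0.04 (SE 0.26, interval -0.61 to 0.52, adjusted p = 1).

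RNF43 and ZNRF3 encode the paired membrane ubiquitin ligases that clear Frizzled receptors, and both were bright. RNF43 read 15.04, 15.07 and 14.97 in untreated HT29 and 14.66, 14.69 and 14.67 in untreated HTOXAR3. Its treated readings ran from 14.99 to 15.27 in HT29 and from 14.48 to 14.70 in HTOXAR3, so the lines did not overlap. The basal difference was -0.35 (SE 0.07, adjusted p = 0.0151), and it was not called when any of 5 of the 6 arrays was left out (-0.38 to -0.33 over all 6) or with slide as a block (-0.34, adjusted p = 0.0615). Treatment moved RNF43 by between -0.09 and 0.11, never called.

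ZNRF3 read 14.83, 14.79 and 14.70 in untreated HT29, 15.11, 15.06 and 14.87 after OXA, and 15.13, 14.99 and 15.17 after the combination. In HTOXAR3 it read 14.21, 14.29 and 14.20 untreated, 14.58, 14.43 and 14.53 after OXA, and 14.51, 14.51 and 14.53 after the combination. In both lines the treated arrays lay above the untreated ones, and all HT29 arrays lay above all HTOXAR3 arrays.

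The basal difference in ZNRF3 was -0.54 (SE 0.07, adjusted p = 0.000825), and its second probe gave -0.57 (adjusted p = 0.00966). OXA gave 0.24 in HT29 (adjusted p = 0.281) and 0.28 in HTOXAR3 (adjusted p = 0.155), and the combination 0.32 in HT29 (SE 0.07, adjusted p = 0.0402) and 0.28 in HTOXAR3 (adjusted p = 0.105). The call in HT29 was lost when any of 5 of its 6 arrays was left out (0.28 to 0.37 over all 6) and under 7 of 12 other settings, among them the second ZNRF3 probe (0.21) and both scalings to the 75th percentile of each array (0.15 and 0.17). Between the lines the combination response of ZNRF3 differed by -0.04 (SE 0.10, interval -0.26 to 0.18, adjusted p = 1).

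MYC, the growth-promoting transcription factor, read 14.41, 14.36 and 14.51 in untreated HT29, 14.06, 14.08 and 14.14 after OXA, and 13.85, 13.76 and 13.90 after the combination. In HTOXAR3 it read 14.46, 14.64 and 14.77 untreated, 14.29, 14.38 and 14.31 after OXA, and 14.60, 14.43 and 14.60 after the combination. In HT29 the 3 treatments did not overlap and stood in falling order, whereas in HTOXAR3 the combination arrays overlapped the untreated ones and lay above the OXA arrays.

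Under the combination MYC changed by -0.59 in HT29 (SE 0.08, adjusted p = 0.000501), and the value was -0.08 in HTOXAR3 (interval -0.25 to 0.09, adjusted p = 1). The line difference in that response was 0.51 (SE 0.11, adjusted p = 0.263), which was not called. OXA alone gave -0.34 in HT29 (adjusted p = 0.0611) and -0.30 in HTOXAR3 (adjusted p = 0.176). Same-numbered arrays of HT29 varied together in the OXA comparison, and with replicate number as a block the HT29 difference was called (adjusted p = 0.0426). A second MYC probe was well above background on 2 of 18 arrays and gives no measure of these differences, and averaged with it the combination response in HT29 was -0.43 and not called (adjusted p = 0.395).

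TCF7, which encodes the TCF/LEF family factor TCF1, read 11.50, 11.43 and 11.51 in untreated HT29, 11.58, 11.52 and 11.54 after OXA, and 11.10, 11.24 and 11.36 after the combination. In HTOXAR3 it read 11.83, 11.97 and 11.93 untreated, 12.16, 12.15 and 12.17 after OXA, and 11.50, 11.59 and 11.48 after the combination. The combination arrays were the lowest of each line, and those of HTOXAR3 overlapped the untreated HT29 arrays.

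TCF7 was 0.43 higher at baseline in HTOXAR3 (SE 0.07, adjusted p = 0.00271). In HTOXAR3 it changed by -0.64 when Curcumin was added to OXA (SE 0.07, adjusted p = 0.000171) and by -0.39 under the combination against untreated (SE 0.07, adjusted p = 0.0048). In HT29 Curcumin added to OXA gave -0.31 (adjusted p = 0.0657) and the combination -0.24 (adjusted p = 0.131). Between the lines the Curcumin effect on TCF7 differed by -0.32 (SE 0.09, adjusted p = 1). The dimmer TCF7 probe gave 0.33 at baseline (adjusted p = 0.552), -0.49 for Curcumin in HTOXAR3 (adjusted p = 0.0692) and -0.16 for the combination there (adjusted p = 1), the same directions and no call.

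The 18 arrays lay on 3 slides, and 1 slide held only 2 arrays of HT29. For the called differences between 2 groups, the value within each slide that held both groups had the pooled direction in 39 of 39 cases. When the model held only the arrays of the groups compared, 7 of the 20 called differences kept their call: ASCL2, SP5 and LGR5 at baseline, NKD1 in HT29 under both treatments, and SP5 under the combination in both lines. No called difference turned its direction under any of 353 alternative values.

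**Figure D3:**
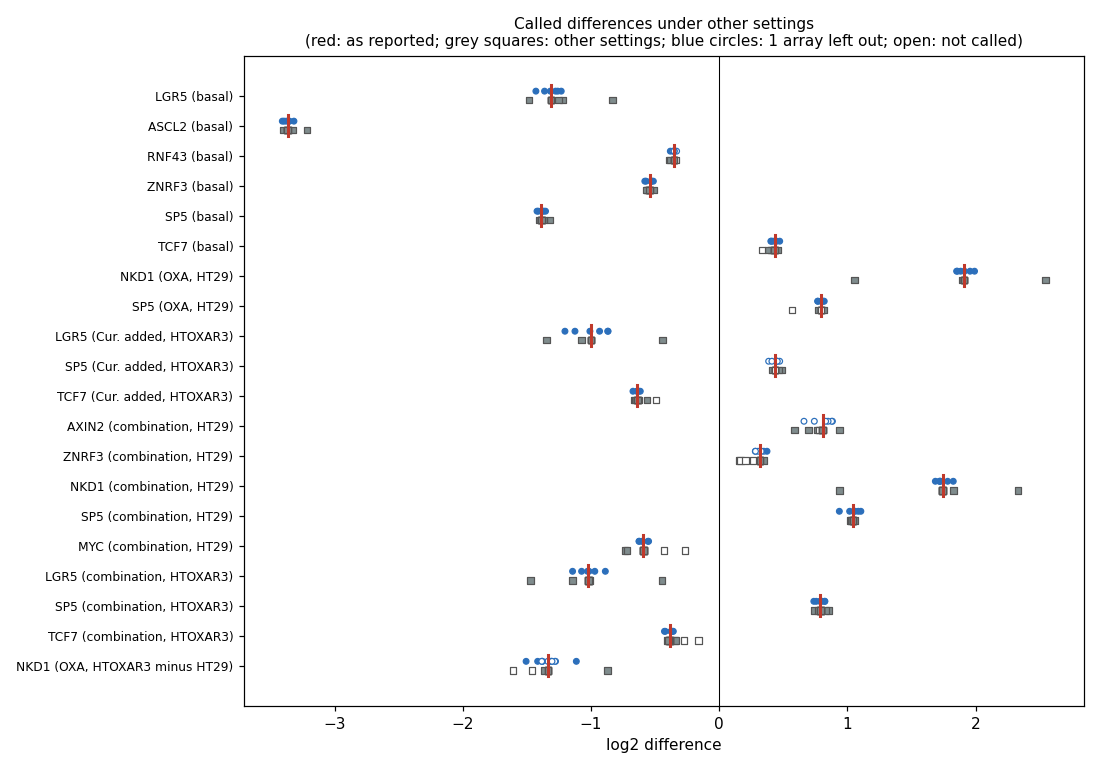
Each of the 20 called log2 differences (red line) with its values under other settings (grey squares) and with 1 array left out (blue circles); open symbols were not called. No symbol crosses 0; ASCL2 at baseline stays between -3.41 and -3.21, whereas LGR5 for the combination in HTOXAR3 runs from -1.47 to -0.44 and NKD1 for OXA in HT29 from 1.06 to 2.54.

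The rest of the pathway was read through 6 lists of 125 genes by role. At baseline 35 of the 125 were called (28%), 16 higher and 19 lower in HTOXAR3, beside 11.6% of all names and 22.3% of detected names. Of 20 genes of the beta-catenin core (destruction complex, Dishevelled and transcriptional partners), limma called 0 at baseline, with a median difference of -0.15. Of 17 receptors 5 were higher and 3 lower (47.1% called). LGR4, like LGR5 an R-spondin receptor, differed by -1.95 (SE 0.07, adjusted p = 9.23e-10), and LGR6, the remaining member of that family, was higher by 1.40 (adjusted p = 3.65e-07). The mean of LGR4 was 12.1 in untreated HT29 and 10.1 in HTOXAR3.

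Among ligands, WNT11, which mostly acts without beta-catenin, was higher at baseline by 1.99 (adjusted p = 2.22e-09) and WNT10A by 0.95 (adjusted p = 1.54e-07), with 2 of 23 ligands and R-spondins called (8.7%, below the 11.6% of all names). Of 23 other Wnt target genes 8 were lower and 2 higher (43.5% called, beside 22.3% of detected names). BAMBI, a decoy receptor of TGF-beta signalling, had a mean of 8.96 in HT29 and 6.14 in HTOXAR3, a difference of -2.82 (SE 0.10, adjusted p = 1.16e-09). EPHB2, a guidance receptor of crypt cells, was higher by 1.87 (adjusted p = 3.91e-05). Of 21 other intestinal stem cell genes 47.6% were called. There 6 were lower, among them LRIG1, a brake on growth factor receptors (-1.50, adjusted p = 1.99e-08), and PROM1 (-1.44, adjusted p = 0.000139), and 4 were higher, led by PTPRO (2.32, adjusted p = 1.7e-06).

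OXA moved 36 of the 125 in HT29 (28.8%, beside 16% of all names and 29.9% of detected names) and 31 in HTOXAR3 (24.8%, beside 10.3% and 21.2%). The ligands WNT3 and WNT10A rose in both lines, WNT3 by 1.75 (adjusted p = 1.25e-07) in HT29 and 1.13 (adjusted p = 2.33e-05) in HTOXAR3, and WNT10A by 1.67 (adjusted p = 8.51e-10) and 1.08 (adjusted p = 2.84e-07). WNT11 changed by -1.12 in HTOXAR3 (adjusted p = 3.02e-06) and was not called in HT29 (0.03), a line difference of -1.15 (adjusted p = 0.000281). NKD2, the paralogue of NKD1, went the other way in HT29, where it fell by 2.43 on the log2 scale (adjusted p = 1.91e-09). Between the lines the OXA response of NKD2 differed by 2.21 (SE 0.12, adjusted p = 2.66e-06).

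Of the beta-catenin core, 3 of 20 fell in HT29 after OXA and 0 rose, a share of 15% called that is no higher than the 16% of all names and the 29.9% of detected names. These were DVL1, a Dishevelled (-1.71, adjusted p = 1.45e-08), AXIN1, the constitutive relative of AXIN2 (-1.30, adjusted p = 6.76e-07), and APC2 (-1.09, adjusted p = 0.000866). Their OXA responses differed between the lines by 1.44 for DVL1 (adjusted p = 3.56e-05), 1.24 for AXIN1 (adjusted p = 0.000482) and 2.03 for APC2 (adjusted p = 0.000912). In HTOXAR3 3 core genes were called after OXA (15%, beside 10.3% of all names and 21.2% of detected names), of which APC2 (0.95, adjusted p = 0.00513) and GSK3B (0.35, adjusted p = 0.00354) rose and PYGO2 fell (-0.33, adjusted p = 0.0325).

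Curcumin added to OXA moved 20 of the 125 in HT29 (16%, beside 5.52% of all names and 12.3% of detected names) and 23 in HTOXAR3 (18.4%, beside 8.84% and 18.4%). Of the 21 other intestinal stem cell genes, 2 were higher and 2 lower in HT29 (19% called), and 2 higher and 5 lower in HTOXAR3 (33.3%). CLU, a chaperone gene that marks a regenerative stem cell state, rose by 1.51 in HT29 (adjusted p = 1.55e-06) and 2.09 in HTOXAR3 (adjusted p = 3.79e-08). MEX3A, of the same list, changed by -0.67 in HT29 (adjusted p = 0.000893) and -0.85 in HTOXAR3 (adjusted p = 7.93e-05). CD44, a hyaluronan receptor and Wnt target, fell by 0.52 in HT29 (adjusted p = 0.0295) and 0.80 in HTOXAR3 (adjusted p = 0.000753) on the log2 scale. SOX4, a transcription factor gene, fell by 0.76 (adjusted p = 0.000434) and 0.74 (adjusted p = 0.000355).

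The combination against untreated cells moved 43 of the 125 in HT29 (34.4%, beside 18.6% of all names and 34.3% of detected names) and 48 in HTOXAR3 (38.4%, beside 17.5% and 32.2%). Of 17 receptors 8 were lower in each line and 0 higher (47.1% called). FZD3 fell by 0.88 in HT29 (adjusted p = 0.000324) and by 1.35 in HTOXAR3 (adjusted p = 6.07e-06), and ROR1, a receptor of non-canonical Wnt proteins, by 0.85 (adjusted p = 0.000251) and 1.06 (adjusted p = 3.67e-05). The receptors' median difference was -0.37 in HT29 and -0.50 in HTOXAR3, beside -0.03 and -0.01 over all names.

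Of the 21 other intestinal stem cell genes, 2 were higher and 7 lower in HT29 (42.9% called), and 3 higher and 8 lower in HTOXAR3 (52.4%). Among those lower, MEX3A changed by -0.84 in HT29 (adjusted p = 2.05e-05) and -1.06 in HTOXAR3 (adjusted p = 2.65e-06). CLU, of the same list, rose from a mean of 8.52 to 11.2 in HT29 (2.64, SE 0.09, adjusted p = 8.47e-10) and from 7.62 to 10.6 in HTOXAR3 (2.94, SE 0.09, adjusted p = 7.06e-10). CD44 fell by 1.203 in HT29 (adjusted p = 4.65e-06) and by 1.57 in HTOXAR3 (adjusted p = 4.7e-07). Of the 23 other Wnt target genes, 7 were higher and 4 lower in HT29, and 8 higher and 3 lower in HTOXAR3 (47.8% called in each). PLAUR, the urokinase receptor gene, rose by 0.88 (adjusted p = 2.8e-07) and 1.79 (adjusted p = 8.92e-10), a line difference of 0.91 (SE 0.08, adjusted p = 0.000404).

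**Figure D4:**
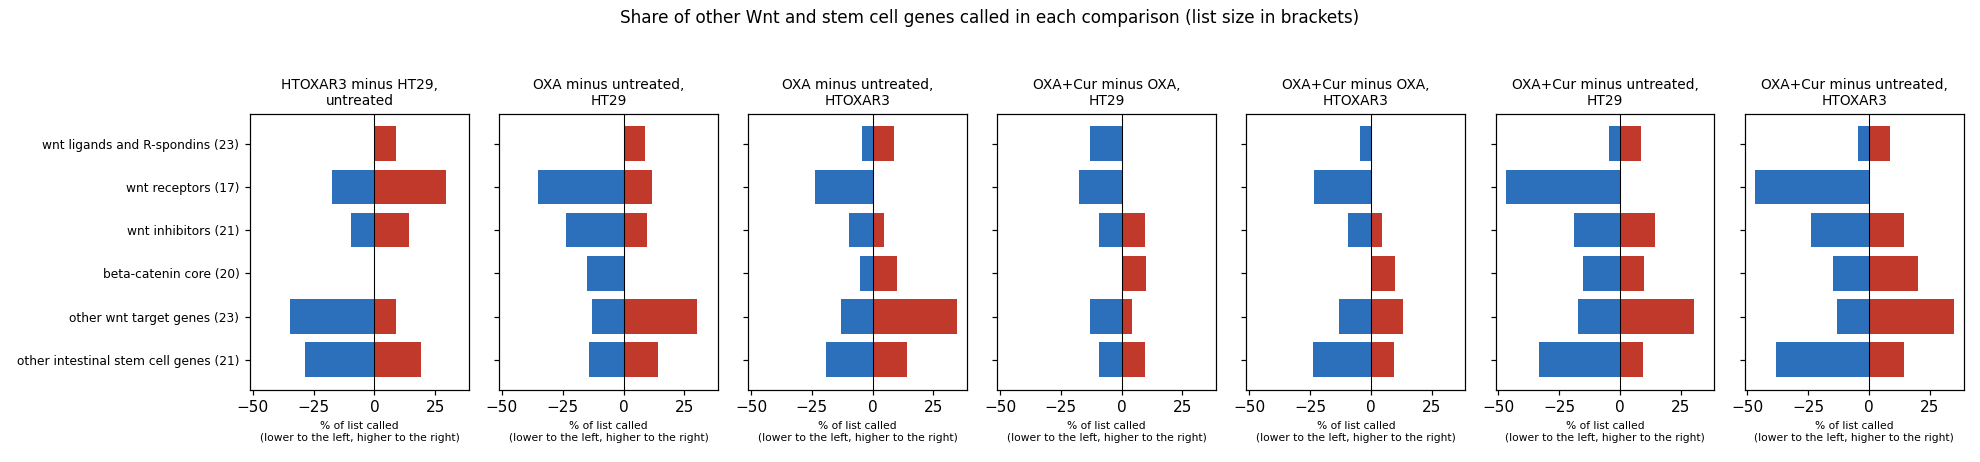
Share of each of the 6 Wnt and stem cell lists called in each comparison between 2 groups, in percent of the list, with genes called higher to the right of 0 and lower to the left; list sizes are in brackets. Under the combination 8 of 17 receptors were lower and 0 higher in both lines, and at baseline 0 of 20 beta-catenin core genes were called.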

How the data were processed

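Total RNA from 18 cultures had been labelled with Cy3, hybridised to Agilent arrays and scanned. The authors deposited Feature Extraction output (software version 10.7.3.1), in which a spot's mean intensity and local background intensity are linear and not normalized. The members and gene lists were chosen with earlier results of these data known. Following the study's methods, which name no offset, intensities were background corrected with normexp (offset 0) and quantile normalized, and limma 3.58.1 (R 4.3.3) was fitted to log2 values of 6 groups. Control spots were left out, spots flagged as outliers (0.628% of readings) were set to missing, spots of a probe were averaged, and the brightest of 50599 probes stood for each of 36204 gene names. Array pairs correlated at 0.995 or less. Genes of the lists were named where called and well above background on every array compared, at most 4 per list and comparison by size of change. Alternatives were another offset, scaling, probe choice, filter, adjustment, fold minimum or set of arrays, slide or replicate number as a block, and leaving out each array in turn. The fit was tested on simulated data. Same-numbered arrays varied together in 2 comparisons, OXA in HT29 (correlations 0.118 to 0.245) and Curcumin added in HTOXAR3 (0.110 to 0.197), where they also shared slides. Precision is limited by 3 arrays per group. A deposited table of log2 values whose lines carry no probe names was not used. Of the cell type markers examined, 1 is not reported here.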

Additional observations from a re-analysis of the deposited data

Results flagged for a closer look

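The 1 result set aside here is a difference between the lines. The OXA response of NKD1 in HTOXAR3 minus that in HT29 was -1.33 (SE 0.21, limma adjusted p = 0.0322), with measured OXA responses of 1.91 in HT29 and 0.58 in HTOXAR3 on the log2 scale and different OXA doses in the lines. Untreated HTOXAR3 was not well above background for NKD1 on any of its 3 arrays, so the OXA response of HTOXAR3 has no exact size. The line difference is therefore not an exact value, and the part of this limit in it was not tested. With a background offset of 50 the difference was -0.87 and called. The call was lost with the processed signal (-1.61, adjusted p = 0.0948) and normexp values (-1.46, adjusted p = 0.0709) scaled to the 75th percentile, with replicate number as a block (adjusted p = 0.0628), with just the arrays compared in the model (adjusted p = 0.275), and when any of 9 of the 12 arrays was left out.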

How the results depend on the processing

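Of 20 called differences, followed over 353 alternative values, 278 stayed called, 75 lost the call and 0 reversed. Of 227 values that did not leave out an array 43 lost the call, and of 126 that left out 1 array 32 did. At a fold minimum of 2 the members called were 3 at baseline, 1 for OXA in HT29, 1 for Curcumin added in HTOXAR3, and 2 and 1 for the combination in HT29 and HTOXAR3. When the model held just the arrays compared, the counts were 3, 1, 0, 2 and 1, and 0 for the line difference in OXA response, where 13 of the 20 calls were lost with fewer arrays to estimate the spread. For OXA in HT29, with 2 called, 7 other settings gave 3, with MYC lower in 6 and ZNRF3 higher in 1. Keeping flagged spots gave 1 call for OXA in HT29 and 1 for Curcumin added in HT29, an alternative chosen after the data were seen.

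For OXA in HTOXAR3, called for 0 members, the counts were 1 with an offset of 50, 1 with the processed signal, 1 with normexp scaled to the 75th percentile, 1 with the mean of all probes, 2 without undetected names and 4 with Benjamini-Hochberg adjustment. For Curcumin added in HT29, also 0, they were 1, 1, 1, 1, 1 and 2 in the same order, and 1 with slide as a block. For the combination in HT29, with 5 called, normexp scaled to the 75th percentile and the mean of all probes each gave 3, and the processed signal gave 5, with TCF7 in place of ZNRF3. For the combination in HTOXAR3, with 3 called, leaving out undetected names and Benjamini-Hochberg adjustment each gave 5. The line difference in OXA response had 0 calls with either 75th percentile scaling. That in the Curcumin effect had 1 with Benjamini-Hochberg adjustment, and that in the combination response 1 with an offset of 50, 1 without undetected names and 3 with Benjamini-Hochberg adjustment. The cause of these shifts was not tested. These scalings moved the median of all names to between -0.19 and 0.09 (processed signal) and between -0.17 and 0.06 (normexp).

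With replicate number as a block 18 of the 20 calls were kept. The line difference in OXA response then had 0 members called (NKD1), and ZNRF3 lost its call for the combination in HT29. No source says that a number marks a shared culture or day. Apart from OXA in HT29 and Curcumin added in HTOXAR3, each comparison of 2 groups had at least 1 same-numbered pair correlating under 0.1, down to -0.172.

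Leaving out 1 array at a time gave counts of 5 to 6 at baseline, 2 to 2 for OXA in HT29, 0 to 1 for OXA in HTOXAR3, 0 to 1 and 1 to 2 for Curcumin added in HT29 and HTOXAR3, 3 to 4 for the combination in each line, and 0 to 1, 0 to 0 and 0 to 1 for the line differences in the OXA, Curcumin and combination responses. Arrays whose removal moved a count by more than 1.5 times were, for Curcumin added in HTOXAR3, replicate 3 after OXA plus Curcumin (1 called in place of 3), for the combination in HT29 each untreated array and replicate 1 after OXA plus Curcumin (3 in place of 5), and for the line difference in OXA response any of the 12 arrays (0 in place of 1) but replicate 1 of untreated HT29 and replicates 2 and 3 of untreated HTOXAR3. Where no member was called, 1 was without untreated replicate 3 (OXA in HTOXAR3), OXA replicate 1 or OXA plus Curcumin replicate 3 (Curcumin added in HT29), or HTOXAR3 untreated replicate 2 (line difference in the combination response).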
